A study of Mus musculus with 4 samples.

Results

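The genes described here carry the mouse symbol Zfp followed by a number and were expressed in every library of an RNA-seq study of CACUL1 in fat cell formation. Of 322 such genes with a value, 212 had at least 1 FPKM in all 4 samples, out of 13085 genes in all and of 9563 genes that reached the same level. FPKM is the number of sequenced fragments per kilobase of transcript, scaled to all mapped fragments of the library. The members were chosen by their measured FPKM in these same 4 libraries, so that every member was detected is no finding.

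All cells were 3T3-L1, a murine preadipocyte line that turns into lipid-storing adipocytes when given hormones. FLAG cells carried an empty FLAG vector and FLAG-CACUL1 cells a vector for FLAG-tagged CACUL1, both selected with G418. The sh-Luc cells carried a short hairpin RNA against luciferase and the sh-CACUL1 cells a hairpin against CACUL1, both selected with hygromycin B. All 4 lines were given insulin at 5 μg/mL, dexamethasone at 1 μg/mL, IBMX at 0.5 mM and rosiglitazone at 5 μM, and RNA was taken on day 8. Drug selection of colonies lasted 2 weeks, and whether a line was 1 clone or a pool is not given in the sources used here. Each condition had 1 library, so no difference below has a replicate check, none was tested, and an effect of CACUL1 cannot be told apart from a difference between lines or libraries.

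Zinc finger proteins of the C2H2 class bind DNA or RNA through loops held by a zinc ion between a pair of cysteines and a pair of histidines. Many of them also carry a KRAB box, which recruits the corepressor TRIM28 (KAP1) and, through it, the histone methyltransferase SETDB1, and these KRAB proteins are best known for silencing transposable elements. Outside the KRAB group the family holds regulators of fat cell formation, among them Zfp423, which commits cells to the adipocyte lineage, and Zfp521, which holds them back.

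The labels were checked first. Cacul1 stood at 9.61 FPKM in FLAG, 11.8 with FLAG-CACUL1, 10.2 in sh-Luc and 5.39 with sh-CACUL1, so the hairpin line was lowest and FLAG-CACUL1 lay slightly above its control. The species of the FLAG-CACUL1 insert is not given in the sources used here, so whether its fragments count toward mouse Cacul1, and thus whether this value measures the overexpression, is not known. All 8 adipocyte markers examined, among them Adipoq and Fabp4, fell short of FLAG by 2-fold or more in FLAG-CACUL1, and exceeded sh-Luc by 2-fold or more in sh-CACUL1. Their summed level was 7451 FPKM in FLAG, 913 with FLAG-CACUL1, 1729 in sh-Luc and 16683 with sh-CACUL1. The 2 control lines thus differed as well, and the part of fat cell maturity in any ZFP difference below was not tested. In bulk RNA, fewer cells of a type and less RNA per cell cannot be told apart. The sh-Luc library stood apart in a pair of preadipocyte markers, with Dlk1 at 0.22 FPKM and Thy1 at 0.66 FPKM, whereas the other 3 libraries had at least 21.2 FPKM of Dlk1 and 34.3 FPKM of Thy1. The other 4 preadipocyte markers, Pdgfra, Pdgfrb, Col1a1 and Col3a1, were between 7.33 and 3885 FPKM in every library. These 4 were at least 2-fold lower in sh-CACUL1 than in sh-Luc, whereas Dlk1 and Thy1 were at least 2-fold higher. In FLAG-CACUL1 against FLAG, 3 of the 6 were at least 2-fold higher and Dlk1 was at least 2-fold lower. Of the other cell types, the only endothelial marker with a value, Pecam1, was at most 0.30 FPKM, and the macrophage markers Cd68 and Csf1r were at most 1.44 FPKM except for Cd68 in FLAG at 16.2 FPKM.

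The symbol was a fair guide to the protein. In the annotated proteins of the 212 members, 197 had at least 2 matches to the C2H2 pattern (2 to 4 residues between the cysteines, 12 between cysteine and histidine, 3 to 5 between the histidines), with a median of 9 matches and a maximum of 33. A KRAB box was found in 103 members and was not found in 109, and 10 members had a SCAN box, a dimerization domain. KRAB members had a median of 12 finger matches against 7 for the others. The 110 ZFP genes left out by the level rule were richer in KRAB proteins, with 84 of the 109 that have an annotated protein (77.1%), whereas the share among members was 48.6%. The 15 members with under 2 matches owed the symbol to other kinds of finger or to single fingers. They included Zfp36 (tristetraprolin), which binds AU-rich mRNA through fingers of the CCCH class and speeds decay, and the related corepressors Zfp503 and Zfp703. By position, chromosome 7 held 45 members, chromosome 17 held 30, chromosome 2 held 16 and chromosome 8 held 15.

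ZFP genes were expressed at low levels. The median member had 3.37 FPKM in FLAG, 4.09 with FLAG-CACUL1, 4.80 in sh-Luc and 3.28 with sh-CACUL1, whereas the median of all 9563 expressed genes was 11.5, 12.4, 13.8 and 9.76 FPKM in the same order. Averaged over the 4 libraries, 25 members were under 2 FPKM, 99 between 2 and 5, 55 between 5 and 10, 23 between 10 and 20, and 10 at 20 FPKM or more. KRAB members were the lower class in every library. The KRAB median was 2.40 FPKM in FLAG against 4.83 for members without the box, 3.30 against 6.51 in FLAG-CACUL1, 3.43 against 6.39 in sh-Luc and 2.90 against 3.80 in sh-CACUL1. The gap was thus widest as a ratio in FLAG and narrowest in sh-CACUL1.

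**Figure D1:**
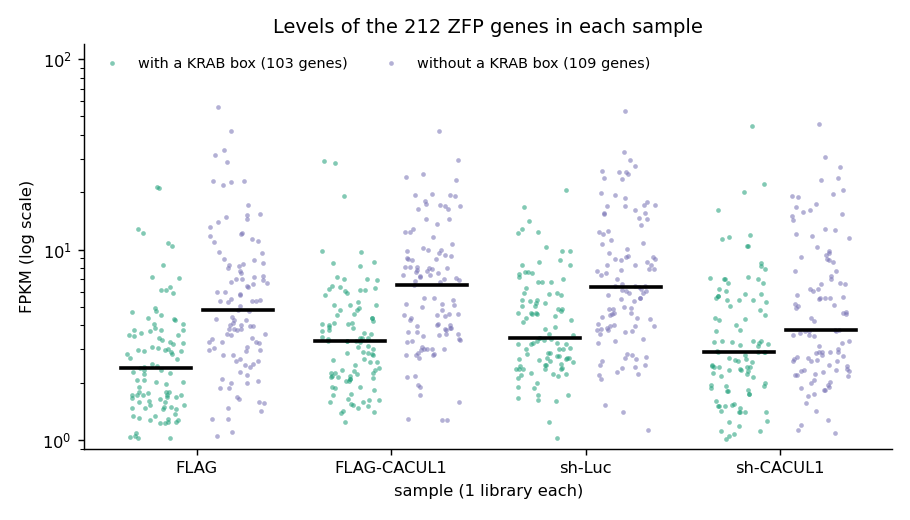
FPKM of the 212 ZFP genes (log axis) in each of the 4 libraries, split into 103 genes with a KRAB box and 109 without, with 1 point per gene and a black bar at the median. The bar of the KRAB genes is the lower one in every library, from 2.40 against 4.83 FPKM in FLAG to 2.90 against 3.80 FPKM in sh-CACUL1.

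Few members reached high levels. The highest mean was that of Zfp207 (BuGZ), a spindle assembly factor that binds Bub3, with 22.7 FPKM in FLAG, 41.7 with FLAG-CACUL1, 53.2 in sh-Luc and 45.8 with sh-CACUL1. Zfp395 followed with 56.1, 19.3, 27.3 and 14.2 FPKM in the same order, and Zfp106, an RNA-binding protein needed to maintain nerve and muscle, with 41.8, 29.5, 25.4 and 18.8 FPKM. FLAG thus held the highest value of both genes and sh-CACUL1 the lowest. Zfp970, a KRAB gene of chromosome 2, had 21.4, 28.5, 20.6 and 44.6 FPKM, with sh-CACUL1 above the rest. Zfp706, a small protein with a single finger match, was nearly level at 29.0, 24.9, 25.5 and 27.0 FPKM.

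At the other end of the scale, the members nearest the limit were Zfp568 with a lowest value of 1.01 FPKM, Zfp933 with 1.02 and Zfp667 with 1.03. The genes just outside were Zfp748 with a lowest value of 0.974 FPKM, Zfp113 with 0.968 and Zfp526 with 0.960. Of the 110 genes left out, 33 passed in 3 samples, 23 in 2, 15 in 1 and 39 in none. Only 2 of them exceeded 5 FPKM anywhere. They were Zfp423, described with its list below, and Zfp827 at 2.37 FPKM in FLAG, 3.24 with FLAG-CACUL1, 5.09 in sh-Luc and 0.771 with sh-CACUL1, which is named because of this level.

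Low FPKM rested on few fragments. From the spacing of low values, the libraries were estimated to hold 14400000 fragments in FLAG, 14300000 with FLAG-CACUL1, 24000000 in sh-Luc and 14900000 with sh-CACUL1. For the 150 members whose row was a single transcript, the median was then about 151 fragments in FLAG, 207 with FLAG-CACUL1, 367 in sh-Luc and 177 with sh-CACUL1. Counting error alone gave the log2 ratio of such a gene, taken without the added 1 of the fold changes below, a 95% interval of about ±0.30 for FLAG-CACUL1 against FLAG and ±0.26 for sh-CACUL1 against sh-Luc (medians over the 150 genes). These intervals cover the count of fragments in these libraries and no variation between cultures.

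The first comparison asked how CACUL1 overexpression altered ZFP expression. Of the 212 members, 6 exceeded FLAG by 2-fold or more in FLAG-CACUL1 and 2 were at least 2-fold lower, on the scale of log2(FPKM + 1) used for every fold change here. Among all 9563 expressed genes 7.98% were at least 2-fold higher and 7.25% at least 2-fold lower. The members' shares added up to 3.77%, against 15.2% of expressed genes. The shift of the bulk was small and upward, with a median log2 fold change of 0.21 for members and 0.13 for expressed genes, and 157 members (74.1%) against 58.2% of expressed genes were higher in FLAG-CACUL1. The smaller share past 2-fold and the positive median were also seen under quantile normalization. There 3.30% of members and 14.6% of expressed genes were past 2-fold, with medians of 0.11 and 0.06. The share of members that were higher then came to 62.7%. With sh-Luc as the control instead, no member was at least 2-fold higher in FLAG-CACUL1, as given in the last section.

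The addition of 1 to each value shrinks the fold change of a low gene, and members were lower than most genes. Without it, 18 members were at least 2-fold higher and 2 at least 2-fold lower, whereas 10.8% and 8.65% of expressed genes were. These made up 8.49% and 0.943% of the members, so the upward share was close to that of all expressed genes. The downward share was smaller, but the level rule limits it. A gene under 2 FPKM in FLAG could not be 2-fold lower and still have 1 FPKM. The lower quartile in FLAG was 1.95 FPKM for members and 5.10 for expressed genes, so the rule bears more on members.

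Zfp365, a protein linked to centrosomes and genome stability, had the largest increase. It stood at 1.99 FPKM in FLAG, 9.37 with FLAG-CACUL1, 4.95 in sh-Luc and 1.42 with sh-CACUL1, a log2 fold change of 1.80 with overexpression. FLAG-CACUL1 was the highest library and the hairpin line the lowest. Zfp932, a KRAB gene of chromosome 5, had 1.48, 6.97, 9.88 and 11.4 FPKM in the same order and a log2 fold change of 1.68. In this gene FLAG alone was low, and FLAG-CACUL1 lay below both hairpin lines. Zfp503 (Nolz1), a transcriptional repressor of limb and brain development, had 6.44, 19.3, 15.4 and 9.38 FPKM and a log2 fold change of 1.45. Zfp521 followed with 1.42, Zfp651 with 1.19 and Zfp142 with 1.08. Zfp651 had 3.62, 9.57, 8.31 and 5.18 FPKM, again with FLAG as the lowest library.

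The 2 members that were at least 2-fold lower have fewer than 2 finger matches each, as do Zfp365 and Zfp503 among those that were higher. Zfp36 stood at 31.2 FPKM in FLAG, 7.84 with FLAG-CACUL1, 17.8 in sh-Luc and 19.1 with sh-CACUL1, a log2 fold change of -1.87. FLAG-CACUL1 was the lowest of the 4 libraries and FLAG the highest, while both hairpin lines lay close together (log2 fold change 0.10, and 0.52 after quantile normalization). Zfp395, with the values given above, had a log2 fold change of -1.49 with overexpression and of -0.90 with the hairpin, and so was lower in both CACUL1 lines than in their controls. All 8 members past 2-fold kept their direction under both other scalings. This was nearly fixed beforehand, since those scalings moved the median of expressed genes by less than 2-fold.

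The second comparison asked the same of CACUL1 depletion. Of the members, 2 exceeded sh-Luc by 2-fold or more in the hairpin line and 19 were at least 2-fold lower, against 4.57% and 18.5% of expressed genes. The sum of the shares was 9.91% for members and 23.0% for expressed genes. Without the added 1 it was 20.8% and 28.9%, so the gap was smaller. Of the members, 2.36% were then at least 2-fold higher and 18.4% at least 2-fold lower, against 5.35% and 23.6% of expressed genes. The level rule limits the lower calls of low genes here too. The library as a whole was shifted, since the median of all 13085 genes was -0.30 and that of the 9563 expressed genes -0.43, and quantile normalization moved these to -0.01 and -0.03. The member median of -0.32 was thus 0.11 above that of expressed genes. After quantile normalization it was 0.11, 10 members were at least 2-fold higher and 1 was at least 2-fold lower, against 9.32% and 8.54% of expressed genes (5.19% against 17.9% in either direction), so the direction of the family as a whole turned with the scaling. The share of members lower in sh-CACUL1 was 74.5% as deposited and 39.2% after quantile normalization. With FLAG as the control instead, calls past 2-fold were more often higher than lower, as given in the last section.

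**Figure D2:**
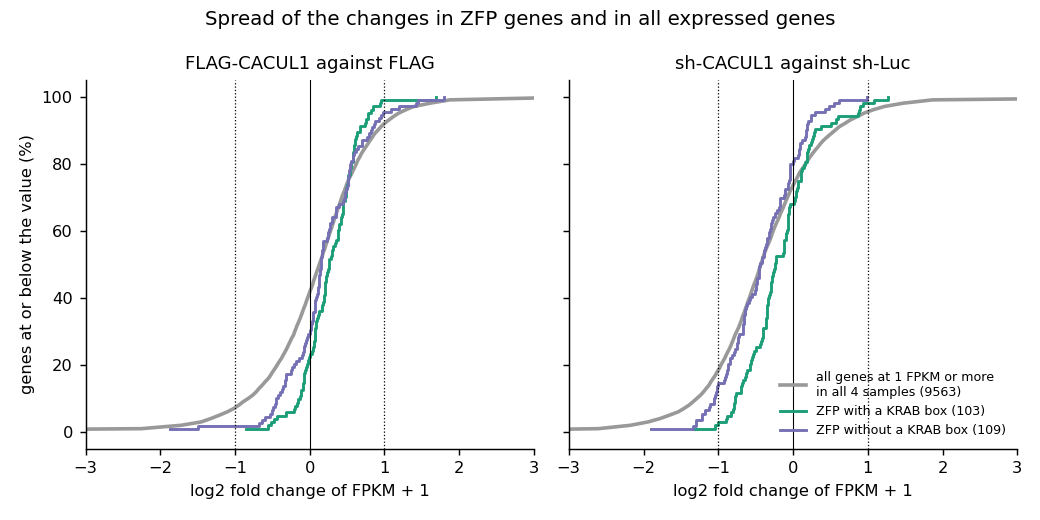
Percentage of genes at or below each log2 fold change of FPKM + 1, for FLAG-CACUL1 against FLAG and for sh-CACUL1 against sh-Luc, as deposited. Green and purple steps are the 103 ZFP genes with and the 109 without a KRAB box, the grey line is all 9563 expressed genes, and dotted lines mark 2-fold. ZFP curves are steeper than the grey line in both panels, with 3.77% and 9.91% of members past 2-fold against 15.2% and 23.0%. The added 1 shrinks low genes, and without it these shares are 9.43% and 20.8% against 19.5% and 28.9%. The level rule also limits the lower calls of low genes. Quantile normalization moves the median of the members in the second panel from -0.32 to 0.11.

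All 19 members at least 2-fold lower with the hairpin kept their direction under both other scalings, which again was nearly fixed beforehand. Only Zfp521 of them stayed past 2-fold after quantile normalization. Next to Zfp521 (log2 fold change -1.91) the largest decreases were those of Zfp938, Zfp319, Zfp64, Zfp365 and Zfp142, between -1.34 and -1.22. Zfp938, a KRAB gene of chromosome 10, had 2.68 FPKM in FLAG, 6.13 with FLAG-CACUL1, 8.60 in sh-Luc and 2.80 with sh-CACUL1. Zfp64, a transcription factor that keeps the leukaemia gene MLL active, had 4.28, 9.05, 8.58 and 2.88 FPKM. Both genes were high in FLAG-CACUL1 and sh-Luc and low in the other 2 libraries, and with overexpression they fell short of 2-fold at 0.96 and 0.93. Zfp319, in contrast, had 3.79, 3.84, 6.45 and 1.96 FPKM and the FLAG lines were close (log2 ratio without the added 1 of 0.02, counting interval -0.18 to 0.22).

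Zfp606 and Zfp970 were the 2 members at least 2-fold higher with the hairpin. Zfp606, a KRAB gene of chromosome 7, stood at 1.5 FPKM in FLAG, 1.91 with FLAG-CACUL1, 1.66 in sh-Luc and 5.42 with sh-CACUL1, a log2 fold change of 1.27. The hairpin line was thus alone in expressing it above 2 FPKM. Zfp970 had a log2 fold change of 1.08. Both remained past 2-fold in the same direction after quantile normalization, at 1.66 and 1.45.

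By KRAB box, the members looked different in the hairpin line. Of the 103 KRAB members, 3 were at least 2-fold lower (Zfp938, Zfp65 and Zfp808, the latter pair named because the count is small) and 2 at least 2-fold higher, whereas of the 109 without the box 16 were lower (14.7%) and 0 higher, beside 18.5% and 4.57% of expressed genes. This contrast in the lower calls rested on the scaling. Quantile normalization left 0 lower and 7 higher with the box and 1 lower and 3 higher without. Median-of-ratios scaling left 0 and 6 with the box and 1 and 1 without. The added 1 mattered as well, since it shrinks low genes most. Without it, 13 KRAB members (12.6%) and 26 others (23.9%) were at least 2-fold lower, beside 23.6% of expressed genes. At least 2-fold higher were then 4 KRAB members and 1 other, beside 5.35% of expressed genes. The median log2 fold change was -0.24 with the box and -0.44 without, the latter close to the -0.43 of expressed genes. After quantile normalization the medians were 0.19 and 0.00, so the order was kept and the sign of the KRAB median was not. Because KRAB genes have low FPKM, where the level rule limits lower calls as well, the split was also taken by level. Under a mean of 5 FPKM the medians were -0.27 for 76 KRAB members and -0.32 for 48 others. From 5 FPKM upward they were -0.07 for 27 KRAB members and -0.48 for 61 others. Those 27 include Zfp966, Zfp967, Zfp970, Zfp971 and Zfp973, neighbouring genes described below that were higher with the hairpin and share sequence. With overexpression the medians were 0.25 with the box and 0.15 without. The 10 SCAN members had medians of 0.35 with overexpression and -0.13 with the hairpin, the latter becoming 0.34 after quantile normalization. None of these differences between classes was tested.

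Read together, the 2 comparisons use different libraries on both sides. Of the members, 114 were higher with overexpression and lower with the hairpin (53.8%, against 46.4% of expressed genes), 11 were lower and then higher (5.19% against 14.7%), 43 were higher in both (20.3% against 11.8%) and 44 lower in both (20.8% against 27.1%). Quantile normalization brought these to 55, 51, 78 and 28, so the excess of the first class rested on the scaling. The larger share of members that was higher in both was seen under each scaling. It was 36.8% against 21.7% of expressed genes after quantile normalization and 33.5% against 19.9% after median-of-ratios scaling. As deposited it lay in the KRAB members, with 29.1% of them and 11.9% of the others higher in both, beside 11.8% of expressed genes. These class shares were 44.7% and 29.4% after quantile normalization, and 42.7% and 24.8% after median-of-ratios scaling. Across the 212 members the correlation of the 2 log2 fold changes was r = -0.07, and across the 9563 expressed genes r = -0.33, where genes of 1 library share its depth and are not independent replicates. Among members without a KRAB box it was -0.21 and among KRAB members 0.08.

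**Figure D3:**
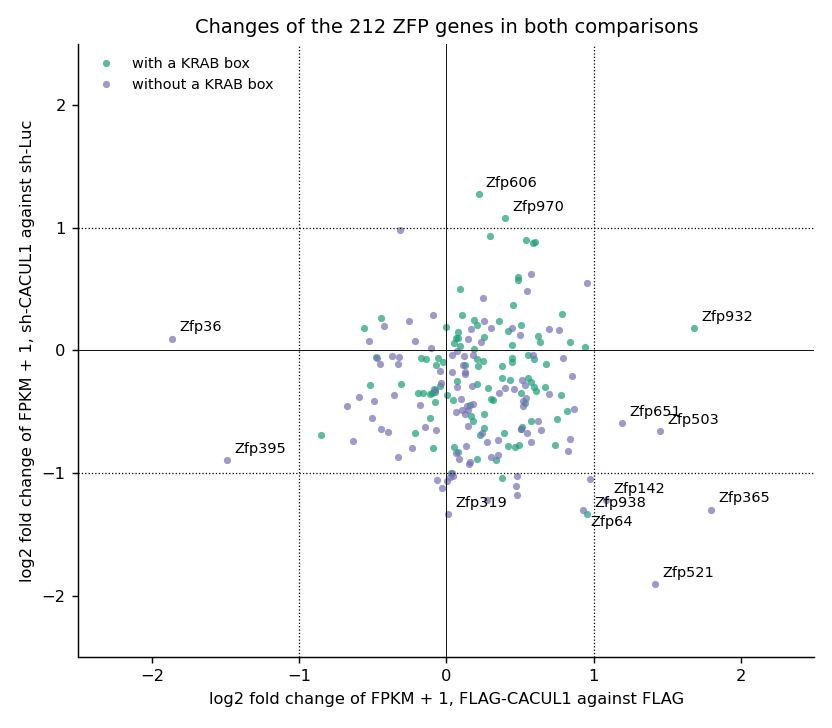
Log2 fold change of FPKM + 1 of each of the 212 ZFP genes in FLAG-CACUL1 against FLAG (x axis) and in sh-CACUL1 against sh-Luc (y axis), as deposited, with dotted lines at 2-fold. Zfp521, Zfp365 and Zfp142 lie past 2-fold on both axes, higher with overexpression and lower with the hairpin. After quantile normalization 1 gene remains there.

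Only 3 members were at least 2-fold changed in both comparisons, Zfp521, Zfp365 and Zfp142, and all were higher with overexpression and lower with the hairpin. That is 1.42% of members against 4.84% of the expressed genes changed at least 2-fold in opposite directions. Zfp142, which has 33 finger matches, stood at 1.64 FPKM in FLAG, 4.60 with FLAG-CACUL1, 5.39 in sh-Luc and 1.74 with sh-CACUL1. FLAG-CACUL1 and sh-Luc, the libraries with the lowest summed adipocyte markers, held the higher values of all 3 genes, and the part of these markers in the pattern was not tested. With about 177 and 491 fragments of Zfp142 in the FLAG lines and 967 and 195 in the hairpin lines, its log2 ratios without the added 1 were 1.48 (counting interval 1.24 to 1.73) and -1.63 (-1.85 to -1.40). After quantile normalization the values of Zfp142 were 0.98 and -0.81 and those of Zfp365 1.70 and -0.91, so of the 3 genes Zfp521 alone stayed past 2-fold in both.

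A list of 12 ZFP genes linked to fat cell formation all had values, and all but Zfp423 were members. With overexpression 1 of the 12 was at least 2-fold higher (Zfp521) and 2 at least 2-fold lower (Zfp36 and Zfp395), beside 7.98% and 7.25% of expressed genes. With the hairpin 1 was higher (Zfp423) and 2 lower (Zfp521 and Zfp281), beside 4.57% and 18.5%, so the share of lower calls was close to that of expressed genes. The median of the list with the hairpin was -0.64 beside -0.43 for expressed genes, and -0.31 beside -0.03 after quantile normalization. Zfp521, the inhibitor of adipocyte commitment, had 1.29 FPKM in FLAG, 5.11 with FLAG-CACUL1, 16.1 in sh-Luc and 3.55 with sh-CACUL1. Its log2 fold changes were 1.42 and -1.91, the range over the 4 libraries was the largest of any member (2.90), and sh-Luc alone exceeded 10 FPKM. Without the added 1 the log2 ratios were 1.99 with overexpression (counting interval 1.69 to 2.28) and -2.18 with the hairpin (-2.34 to -2.01). Against the other control the directions turned, with a log2 fold change of -1.48 for FLAG-CACUL1 against sh-Luc and of 0.99 for sh-CACUL1 against FLAG.

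Zfp423, the commitment factor that raises Pparg and that Zfp521 opposes, had 2.96 FPKM in FLAG, 3.65 with FLAG-CACUL1, 0.953 in sh-Luc and 6.52 with sh-CACUL1. The sh-Luc value kept it from membership. Its log2 fold change was 1.94 with the hairpin and 0.23 with overexpression. The order of the libraries was the reverse of Zfp521 between the hairpin lines, while in the FLAG lines both genes were higher with CACUL1.

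The rest of the list varied less. Zfp36 and Zfp395 were highest in FLAG, as given above. Zfp467, which favours fat over bone formation, had 4.34 FPKM in FLAG and between 2.68 and 2.88 in the other 3 libraries. Zfp516, an activator of brown fat genes, had 15.3, 12.9, 9.30 and 4.94 FPKM in the order used above, and Zfp217, a corepressor component, had 8.26, 8.83, 5.88 and 2.72 FPKM. Both were lowest in the hairpin line, at log2 fold changes of -0.79 and -0.89. Zfp407, which supports PPARγ target genes, and Zfp30, a KRAB protein that promotes fat cell formation, had the same pair of log2 fold changes, 0.51 with overexpression and -0.64 with the hairpin. Zfp407 ran from 1.19 to 3.26 FPKM and Zfp30 from 1.41 to 3.75 FPKM. Zfp638, a coactivator of C/EBP proteins, had 8.20, 11.7, 14.5 and 11.5 FPKM, lowest in FLAG. Zfp148 ranged from 6.10 to 8.96 FPKM. Zfp281, a transcription factor of pluripotent cells, had 3.43, 5.19, 6.47 and 2.30 FPKM and a log2 fold change of -1.18 with the hairpin, which was -0.75 after quantile normalization.

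**Figure D4:**
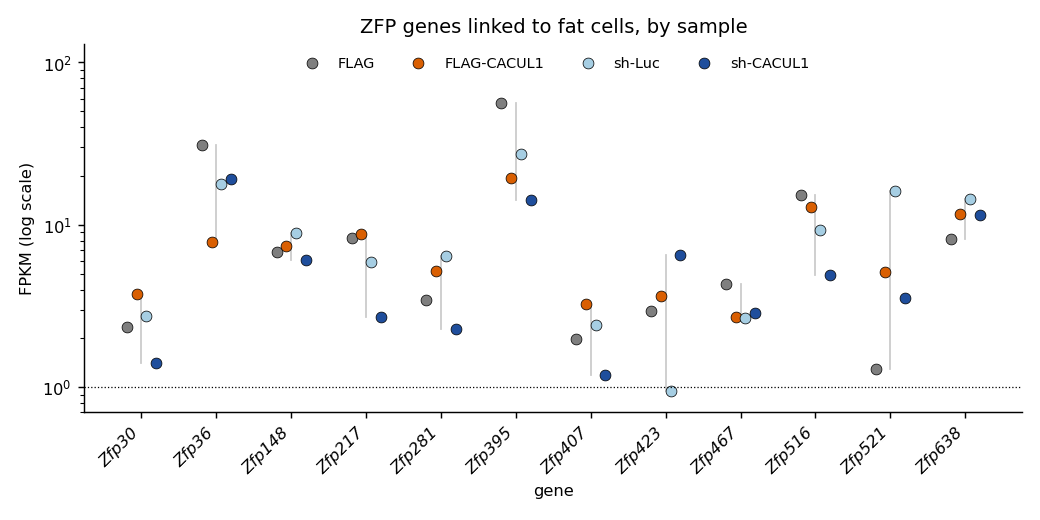
FPKM (log axis) of the 12 ZFP genes linked to fat cell formation, with 1 point per library and a dotted line at 1 FPKM. Zfp521 runs from 1.29 FPKM in FLAG to 16.1 in sh-Luc, and Zfp423 from 0.953 FPKM in sh-Luc to 6.52 in sh-CACUL1.

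A group of neighbouring KRAB genes had a higher median change in the hairpin line than the other KRAB members. It was picked after its values were seen. Zfp966, Zfp967, Zfp973, Zfp970, Zfp971 and Zfp931 lie at the distal end of chromosome 2 (chr2:175918881-178078476, GRCm38). Their median log2 fold change with the hairpin was 0.88 as deposited and 1.36 after quantile normalization, whereas the 97 other KRAB members had -0.26 and 0.17. With overexpression it was 0.50 against 0.25. The summed level of the 6 genes was 71.9 FPKM in FLAG, 100.3 with FLAG-CACUL1, 61.1 in sh-Luc and 109.6 with sh-CACUL1, so both CACUL1 lines were above both controls. The other 750 expressed genes of chromosome 2 had a median of -0.31 with the hairpin, above the -0.43 of all expressed genes, and of 0.11 after quantile normalization, where all expressed genes had -0.03.

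The members of the group were not alike. Zfp966 had 6.13 FPKM in FLAG, 9.82 with FLAG-CACUL1, 5.21 in sh-Luc and 10.5 with sh-CACUL1, and Zfp967 had 6.12, 9.68, 5.22 and 10.4. The values of this pair cannot be read as independent, because every 31-base stretch of the Zfp967 transcript occurs in another ZFP transcript. For Zfp973 (12.8, 19.0, 10.3 and 20.02 FPKM) 94.4% of the stretches were shared, for Zfp970 59.9% and for Zfp966 56.7%, so how fragments were divided among these copies is uncertain. Zfp971, with 26.6% shared, had 21.1, 29.2, 16.8 and 22.0 FPKM and a log2 fold change of 0.37 with the hairpin. Zfp931, also with 26.6% shared, had 4.40, 4.09, 3.00 and 2.21 FPKM and stood lowest in sh-CACUL1 (-0.32, and 0.07 after quantile normalization). The excess in the hairpin line was thus largest in the 4 genes that share most sequence.

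The windows before the start sites of these genes are nearly the same sequence as well. RefSeq windows of 250 bases upstream of the annotated start (GRCm38.p6) were matched for 173 members, 90 of them with a KRAB box. The longest stretch held, on either strand, by all 6 of these windows and by at least 3 other members has 13 bases, GTCACTCAAGACT. It was in the windows of 9 members, all with a KRAB box, and in 0.163% of the windows of 27025 genes. The search itself required at least 9 members, so the gap between these numbers is no finding. The 9 members were the 6 genes above with Zfp932, Zfp937 and Zfp958. Windows of 5 of them are shown because they hold the stretch in genes that were high in sh-CACUL1 and in genes that were not. They lie at chr2:177464492-177464741 on the plus strand (Zfp970), chr2:175931101-175931350 on the minus strand (Zfp966), chr2:178023034-178023283 on the plus strand (Zfp971), chr2:178078426-178078675 on the minus strand (Zfp931) and chr5:109996260-109996509 on the plus strand (Zfp932). The capitals mark the stretch.
Zfp970: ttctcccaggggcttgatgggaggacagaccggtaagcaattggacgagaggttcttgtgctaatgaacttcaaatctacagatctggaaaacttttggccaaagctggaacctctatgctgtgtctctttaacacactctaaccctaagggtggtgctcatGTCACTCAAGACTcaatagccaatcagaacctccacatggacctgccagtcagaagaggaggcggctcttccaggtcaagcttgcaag
Zfp966: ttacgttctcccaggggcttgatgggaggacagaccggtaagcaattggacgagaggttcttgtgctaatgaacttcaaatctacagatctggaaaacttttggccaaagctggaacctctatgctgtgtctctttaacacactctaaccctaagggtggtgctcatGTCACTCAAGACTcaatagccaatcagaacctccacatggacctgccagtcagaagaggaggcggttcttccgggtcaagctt
Zfp971: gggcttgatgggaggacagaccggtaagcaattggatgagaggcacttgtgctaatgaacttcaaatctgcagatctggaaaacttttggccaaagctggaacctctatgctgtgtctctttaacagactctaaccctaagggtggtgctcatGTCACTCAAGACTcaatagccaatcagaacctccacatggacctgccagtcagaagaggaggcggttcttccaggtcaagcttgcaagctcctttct
Zfp931: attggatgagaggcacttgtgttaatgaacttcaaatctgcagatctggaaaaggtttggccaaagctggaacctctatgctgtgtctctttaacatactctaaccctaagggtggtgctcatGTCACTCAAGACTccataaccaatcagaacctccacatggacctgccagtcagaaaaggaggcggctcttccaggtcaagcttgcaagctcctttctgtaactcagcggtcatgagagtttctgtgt
Zfp932: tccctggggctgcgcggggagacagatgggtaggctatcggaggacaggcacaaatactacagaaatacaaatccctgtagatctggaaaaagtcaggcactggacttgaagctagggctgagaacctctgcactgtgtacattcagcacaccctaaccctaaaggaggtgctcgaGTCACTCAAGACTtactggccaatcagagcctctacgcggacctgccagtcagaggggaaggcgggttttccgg
Aligned on the stretch, the window of Zfp970 matched that of Zfp966 at 243 of 245 bases, that of Zfp971 at 235 of 241 and that of Zfp931 at 200 of 211, but that of Zfp932 at only 127 of 236. The window of Zfp967 was identical to that of Zfp966. The stretch begins 88 bases before the start in Zfp970, 83 in Zfp966, 97 in Zfp971, 127 in Zfp931 and 74 in Zfp932. Zfp931 carries it and was not higher in sh-CACUL1, and Zfp932 carries it and was low in FLAG only. Zfp937 had 1.31 FPKM in FLAG, 2.56 with FLAG-CACUL1, 1.62 in sh-Luc and 1.83 with sh-CACUL1, and Zfp958 had 3.00, 3.86, 3.55 and 2.67. With the hairpin the log2 fold changes of the 3 genes outside the chromosome 2 group were 0.18 for Zfp932, 0.11 for Zfp937 and -0.31 for Zfp958, and no median is given for the 9 because the other 6 were picked for their values. A shared stretch in near-copies describes the windows and locates no binding site.

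**Figure D5:**
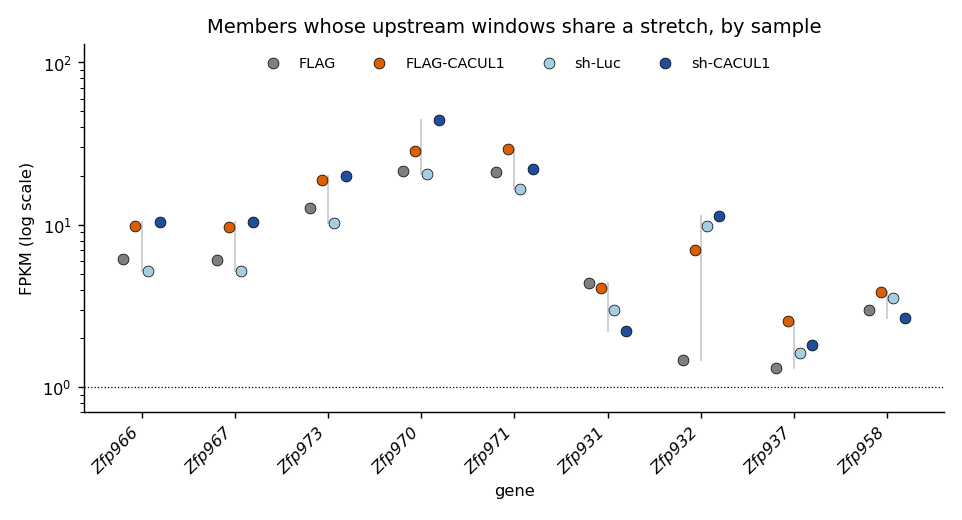
FPKM (log axis) of the 9 members whose upstream windows hold the 13-base stretch, with 1 point per library and a dotted line at 1 FPKM. Zfp966, Zfp967, Zfp973 and Zfp970 are highest in sh-CACUL1, Zfp931 is lowest there, and Zfp932 is low in FLAG alone at 1.48 FPKM.

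The longest stretch held by at least 9 members of any kind, again a count set by the search, was another, CTGGGAAATGTAGT. Its letters resemble the long site known for ZNF143. It was in 0.296% of all windows and in those of Zfp260, Zfp383, Zfp420, Zfp60, Zfp605, Zfp74, Zfp790, Zfp84 and Zfp85, of which 7 have a KRAB box. Their median log2 fold changes were 0.19 with overexpression and -0.26 with the hairpin, near those of the other members with a window (0.22 and -0.31). A set of 5 common promoter letter strings, chosen after values of the members were seen and counted on either strand, is given by class. CCAAT, the CCAAT box, was in 60.0% of KRAB windows, 43.4% of the others and 37.5% of all. CCAATCA, a longer form that overlaps it, was in 30 of 90 KRAB windows (33.3%), in 9.64% of the 83 windows of other members and in 8.38% of all windows. The GC box letters GGGCGG were in 38.9% of KRAB windows, 67.5% of the others and 35.4% of all. TTCCGG, the core bound by ETS factors, was in 41.1% and 27.7% of the member classes against 13.6% of all windows, and TATAAA was in 7.78% and 6.02% against 14.3%. Members with CCAATCA had median log2 fold changes of 0.30 with overexpression and -0.07 with the hairpin, and those without it 0.21 and -0.35. This order with the hairpin was not seen for the shorter CCAAT, where the medians were 0.25 and -0.32 with the letters and 0.16 and -0.27 without. The distal chromosome 2 genes are among those with CCAATCA, and a window without these letters says nothing about a factor.

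Members on 3 other chromosomes, also picked after seeing the values, were set beside their neighbours in the hairpin line. All 12 members on chromosome 13 were lower with the hairpin (median -0.71), of which 2 (Zfp131 and Zfp58) became higher after quantile normalization (median -0.36). The other 313 expressed genes of the chromosome were low as well, with a median of -0.67 and 85.0% of them lower. On chromosome 15 the 9 members had a median of -0.77 with 7 lower, and 363 other genes -0.55, which became -0.31 and -0.14 after quantile normalization. The 30 members on chromosome 17, of which 25 have a KRAB box, had a median of -0.06 as deposited and 0.35 after quantile normalization, and 467 other genes there had -0.24 and 0.18.

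Of a list of 25 symbols for genes through which KRAB proteins silence, 24 had a row. Of these, 23 were at 1 FPKM or more in all samples. With overexpression 16 were higher, 8 lower and 0 at least 2-fold changed, with a median of 0.28 beside 0.13 for expressed genes. With the hairpin 5 were higher and 19 lower (73.5% of expressed genes were lower), with a median of -0.50 beside -0.43. There 1 was at least 2-fold higher and 2 at least 2-fold lower, beside 4.57% and 18.5% of expressed genes. Quantile normalization gave 8 higher and 16 lower (52.1% of expressed genes were lower). On that scale 1 was at least 2-fold higher and 1 at least 2-fold lower, beside 9.32% and 8.54% of expressed genes. The list differed more between the controls, where 21 of 24 were lower in FLAG than in sh-Luc (64.2% of expressed genes were lower). At least 2-fold lower were 7 as deposited and 4 after quantile normalization, beside 14.0% and 9.89% of expressed genes. The median was -0.70 (-0.67 after quantile normalization) beside -0.27 for expressed genes. Trim28, the shared corepressor, stood at 32.0 FPKM in FLAG, 51.4 with FLAG-CACUL1, 58.4 in sh-Luc and 34.2 with sh-CACUL1, a log2 fold change of 0.66 with overexpression and -0.76 with the hairpin (-0.44 after quantile normalization). Setdb1 had 6.67, 9.81, 13.3 and 15.3 FPKM and was not lower with the hairpin (0.19). Dnmt1, the maintenance DNA methyltransferase, had 5.53, 7.20, 14.5 and 4.18 FPKM and a log2 fold change of -1.58, and it stayed past 2-fold after quantile normalization at -1.13. Hdac2, a histone deacetylase, had 23.9, 45.4, 64.1 and 29.9 FPKM and -1.07, which became -0.75. Trim24, a relative of Trim28, had 14.7, 9.25, 8.37 and 20.4 FPKM and a log2 fold change of 1.19.

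Most members stayed within a narrow range. For 157 of the 212 members the whole range of log2(FPKM + 1) over the 4 libraries was under 1 (74.1%, against 49.8% of expressed genes), the median range was 0.73, and 186 members (87.7% against 67.6%) were within 2-fold in both comparisons. The added 1 shrinks the range of low genes, and without it the shares were 56.6% against 41.0% and 72.6% against 59.7%. The level rule also narrows the range, since a gene that falls under 1 FPKM in any library is left out, as Zfp423 and Zfp827 were. It bears more on members, which were lower than most expressed genes, so these shares are no measure of the whole family. Among members with a mean of at least 5 FPKM the narrowest ranges were those of Zfp263 (7.23 to 8.28 FPKM), Zfp706, Zfp768 (7.01 to 8.86 FPKM) and Zfp131 (9.84 to 13.1 FPKM). Of the genes with under 2 finger matches, Zfp330, a nucleolar protein, had 33.2, 23.1, 25.01 and 16.8 FPKM in the order used above, and Zfp703 had 15.2, 17.4, 23.8 and 17.3 FPKM.

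Between the controls, a smaller share of members than of expressed genes was past 2-fold. Of the members, 20 (9.43%) were at least 2-fold lower in FLAG than in sh-Luc and 1 (0.472%) at least 2-fold higher (Zfp395, 1.01). Among expressed genes the shares were 14.0% and 8.10%. After quantile normalization 5.19% of members and 9.89% of expressed genes were at least 2-fold lower. Without the added 1 these lower shares were close, at 17.5% and 17.9%. The median as deposited was -0.35 for members and -0.27 for expressed genes, and -0.13 and -0.11 after quantile normalization. FLAG held the lowest value of the 4 libraries for 85 members (40.1%, against 29.9% of expressed genes) and sh-CACUL1 for 94 (44.3% against 45.1%), whereas sh-Luc held the highest for 96 (45.3% against 40.3%). After quantile normalization these shares were 39.2% against 32.9%, 22.6% against 28.0% and 20.3% against 25.7%. The largest gaps between the controls were those of Zfp521, with a log2 fold change of -2.90, and Zfp932, with -2.13. As the control lines enter the other comparisons, these gaps are not independent of the fold changes given above.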

How the data were processed

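RNA-seq libraries of the 4 lines were prepared and sequenced by a company, and the authors deposited 1 FPKM value per sample for 13110 rows named by RefSeq transcripts. The submitters' processing notes name the build mm10, while the aligner, the program that computed FPKM and its filters are not given in the sources used here. FPKM is relative to the library total, so a change in a few abundant genes moves all others.

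Rows were joined to symbols through GENCODE M21 and summed per symbol (196 rows had no symbol and 8 had several). Members are symbols of Zfp and up to 3 digits with at least 1 FPKM in all 4 samples, and the members and lists were chosen with earlier results of these data known. Fold changes are differences of log2(FPKM + 1), with 2-fold as the cut-off. The study used a 2-fold cut-off too, but it describes its clustered values as normalized. Calls made here on the values as deposited therefore need not be those of the study. With 1 sample per condition no test was run. Named genes were the 5 highest, the fat cell list, up to 6 with the largest change each way past 2-fold per comparison, those changed in both, the 4 most even, 3 on each side of the limit, 5 with under 2 fingers, and silencing genes past 2-fold with Trim28 and Setdb1. Others are said to be picked later. Finger, KRAB and SCAN patterns were searched in GENCODE proteins, the KRAB and SCAN boxes by conserved residues, so a divergent box can be missed. Fragment numbers are estimates from the spacing of low FPKM values times transcript length, and intervals (95%) cover counting error only. Code was tested on simulated data. Python 3.11.15, pandas 2.3.3, numpy 2.4.6, scipy 1.17.1 and matplotlib 3.10.9 were used.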

Additional observations from a re-analysis of the deposited data

How the results depend on the processing

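No paired analysis was possible because each condition has 1 sample and the conditions share only the replicate number 1, and no replicate could be left out. The 8 largest changes with overexpression and the 21 with the hairpin kept their direction under both other scalings. Those scalings moved the median of expressed genes by less than 2-fold, so this was nearly fixed beforehand. Counts of members past the cut-off are given as higher and lower in FLAG-CACUL1 against FLAG, then in sh-CACUL1 against sh-Luc, then in FLAG against sh-Luc, then as changed in opposite directions by both, and were 6 and 2, 2 and 19, 1 and 20, and 3. They were 15 and 2, 4 and 34, 2 and 34, and 6 with a pseudocount of 0.1, and 18 and 2, 5 and 39, 2 and 37, and 6 without one. Quantile normalization gave 5 and 2, 10 and 1, 2 and 11, and 1, and median-of-ratios scaling 5 and 2, 7 and 1, 3 and 10, and 1. A cut-off of 1.5-fold gave 37 and 6, 9 and 62, 7 and 62, and 12, and one of 3-fold 2 and 1, 0 and 1, 0 and 5, and 0. With at least 5 FPKM in all samples, which left 48 members, fewer genes could be called, and the counts were 1 and 2, 1 and 2, 1 and 4, and 0. At least 1 FPKM in any sample (283 genes) and no filter (322 genes) both raised the higher calls of the hairpin comparison to 5 and of the control comparison to 4. Against the other control, which differs in vector and drug as well, FLAG-CACUL1 gave 0 higher and 4 lower and sh-CACUL1 16 higher and 8 lower. The higher calls with overexpression were thus lost, and higher calls with the hairpin outnumbered lower ones. Shares of expressed genes for this swap are not given here. A further 2 alternatives were chosen after seeing the data. Symbols from RefSeq, which add Zfp267 and Zfp935 and drop Zfp654, left every count within 1.5 times, and leaving out the 6 near-identical members left 1 higher call with the hairpin, since Zfp970 was then not counted. The cause of the other differences was not tested.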
